A study of Mus musculus with 4 samples.

Results

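The genes described here are 34 genes of the disease-associated microglial state and of the lysosome, and their 220 accessible sites of 74695 in the whole series. Sites were chosen by position. A merged ATAC-seq peak counted for a gene when its centre lay inside the gene body or when the gene was the nearest protein-coding one within 100000 bp. All 34 symbols were found in the gene table, and each had at least 1 site. Of the other protein-coding genes 70.2% (15352 of 21862) had at least 1. The 34 genes fell into 19 lysosomal and 15 disease-associated genes.

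Chromatin accessibility had been profiled by Omni-ATAC in sorted macrophages of the mouse brain parenchyma, in 2 groups of 2 libraries labelled MDM and YSM. MDM is read here as monocyte-derived macrophages, after the title of the series; YSM is left as labelled because no label expands it. Both groups carried the genotype label Ms4a3-Ai9, which pairs a gene of granulocyte and monocyte progenitors with a Cre-dependent red fluorescent reporter, and the treatment label DR-3x, which the labels do not explain. The labels are silent on whether the paired libraries of each group were from different mice. The deposited files hold peak intervals and no value per library, so no level, fold change or replicate spread can be given for any gene. The depth of the libraries was not analysed here. As a check on the label, the macrophage genes Csf1r, Cx3cr1, Ptprc, Itgam, Aif1 and Spi1 had 3, 5, 16, 15, 3 and 3 sites. Genes of other cells, namely Rbfox3, Gfap, Mog, Cldn5, Cd3e and S100a8, had 7, 2, 3, 1, 1 and 0 sites, so the neuronal gene Rbfox3 had more than 4 of the macrophage genes and site numbers did not separate the sets. The start windows of Cx3cr1 and Ptprc held a peak, those of Itgam and Aif1 did not, and Csf1r and Spi1 had no window here. Of the 6 genes of other cells 0 had a start window with a peak. These marker genes were picked with results known.

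Microglia that meet amyloid, myelin debris or dying neurons take on a state known as disease-associated, in which genes for phagocytosis, lipid handling and lysosomal digestion are expressed more strongly. The lysosome degrades what the cell takes up. It needs a proton pump, a glycosylated membrane, proteases of the cathepsin family, glycosidases and lipid transporters. Many lysosomal genes carry the CLEAR element, an E-box bound by the transcription factors TFEB, TFE3 and MITF.

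Sequences upstream of gene starts are shown first because nearly all of these genes had a site at their start. RefSeq start windows (GRCm38.p6, the assembly of mm10) were at hand for 26 of the 34 genes, and ran from 250 bases before an annotated start to 50 after it. The E-box core CACGTG was searched in both strands, which read the same for this motif. It was present in the windows of Ctsd, Lamp1, Ctsl and Gaa, and each of these windows overlapped a merged peak. All copies at Ctsd and Lamp1 lay inside a merged peak, whereas those at Gaa and Ctsl lay in the part of the window outside it. The 250 bases before the start are printed 5′ to 3′ on the gene's strand with CACGTG in capitals. For Ctsl, whose annotated start lies inside the gene, 30 bases around the motif are given.
Ctsd, chr7:142387828-142388077, minus strand: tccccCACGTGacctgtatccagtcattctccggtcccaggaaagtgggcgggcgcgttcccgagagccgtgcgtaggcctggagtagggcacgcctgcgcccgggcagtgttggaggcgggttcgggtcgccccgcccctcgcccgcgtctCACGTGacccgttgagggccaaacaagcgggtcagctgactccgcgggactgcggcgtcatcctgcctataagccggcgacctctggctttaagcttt
Lamp1, chr8:13158911-13159160, plus strand: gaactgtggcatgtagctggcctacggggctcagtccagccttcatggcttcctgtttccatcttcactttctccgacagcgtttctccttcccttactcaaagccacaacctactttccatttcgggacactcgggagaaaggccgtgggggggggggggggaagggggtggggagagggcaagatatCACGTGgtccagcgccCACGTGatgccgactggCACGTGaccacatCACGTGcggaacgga
Ctsl, chr13:64370739-64370768, minus strand: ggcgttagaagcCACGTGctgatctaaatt
Gaa, chr11:119267713-119267962, plus strand: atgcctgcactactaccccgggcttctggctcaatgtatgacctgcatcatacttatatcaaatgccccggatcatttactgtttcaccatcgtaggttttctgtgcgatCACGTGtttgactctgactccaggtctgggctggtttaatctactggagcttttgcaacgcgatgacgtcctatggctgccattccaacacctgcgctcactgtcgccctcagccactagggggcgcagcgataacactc

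Lamp1, which encodes a main glycoprotein of the lysosomal membrane, had 4 copies of CACGTG, which began 61, 45, 28 and 15 bases before the start. Ctsd, which encodes the aspartic protease cathepsin D, had 2 copies, beginning 245 and 98 bases before the start. Gaa, the acid glucosidase gene that breaks down glycogen, had 1 copy at 140 bases. Ctsl, the gene of the cysteine protease cathepsin L, had 1 at 236 bases. The longer form TCACGTG, searched on both strands and overlapping CACGTG, was present at Ctsd, Lamp1 and Gaa.

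Spp1 and Cst7 were the disease-associated genes whose start windows held AGGAAGT, a sequence bound by PU.1 and other ETS factors, on either strand. They were picked for printing after their values were seen. The motif was about as frequent here as elsewhere. Of the 25 genes whose windows overlapped a merged peak 3 held it (12%), against 10.3% of 9198 other protein-coding genes. The motif is in capitals, and began 112 bases before the start of Spp1 and 63 bases before that of Cst7.
Spp1, chr5:104434861-104435110, plus strand: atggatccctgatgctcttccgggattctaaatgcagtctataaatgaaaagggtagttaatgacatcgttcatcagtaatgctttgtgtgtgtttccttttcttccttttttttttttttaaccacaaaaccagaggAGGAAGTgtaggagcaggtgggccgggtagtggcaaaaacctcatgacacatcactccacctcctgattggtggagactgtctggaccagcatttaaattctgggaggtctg
Cst7, chr2:150570165-150570414, plus strand: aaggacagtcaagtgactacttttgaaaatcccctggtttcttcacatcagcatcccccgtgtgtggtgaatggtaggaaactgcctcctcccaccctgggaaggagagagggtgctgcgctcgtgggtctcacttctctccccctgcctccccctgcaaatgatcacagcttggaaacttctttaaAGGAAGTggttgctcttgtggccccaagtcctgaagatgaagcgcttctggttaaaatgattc

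Sites at gene starts were found at nearly all genes with a known strand. Of the 26 genes with a start window, 25 (96.2%, 95% exact interval 80.4 to 99.9%) had a merged peak overlapping it. Among the other protein-coding genes it was 52.7% (9198 of 17465), and 72.5% among the 12285 of them that had any merged peak. All 10 disease-associated genes with a window and 15 of the 16 lysosomal ones were covered. The exception was Cd63, the tetraspanin gene of late endosomes, whose listed start lies inside the gene. A site of 518 bp with 8 subpeaks had its centre 608 bp upstream of the 5′ end of Cd63. No test was made of this difference, since the genes were chosen with results of these data known. With the peak's centre required to lie inside the window, 18 of the 26 genes (69.2%) had one, against 37.3% of the other genes. The 8 genes with no window here were Lpl, Ctsb, Fabp5, Cd52, Cd83, Lilrb4a, Npc1 and Atp6v0d2.

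Each merged peak carries the number of library-level peaks, or subpeaks, that were joined into it. A site with 3 subpeaks or fewer had no call in 1 or more of the 4 libraries. With 4 or more, every library can have had one, although a library can also have given several. Of the 25 peaks at starts, 17 (68%) had exactly 4 subpeaks, 6 had 5 or more and 2 (8%) had at most 3. The shares in the other genes with a start peak were 70.3% for exactly 4 and 8.99% for at most 3. The 2 exceptions were Gpnmb, a transmembrane glycoprotein gene induced in lipid-laden macrophages, and Ctsz, the cathepsin Z gene, with 2 subpeaks each. Around the Gpnmb start lay a second site with 1 subpeak, 433 bp inside the gene. Ctsz had 3 sites within 1000 bp of its start, with 2, 2 and 1 subpeaks. The intervals used here do not record which libraries lacked the call.

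Motif shares at starts were computed over genes whose windows overlapped a peak. CACGTG was present in 4 of 15 lysosomal genes (26.7%, 95% exact interval 7.79 to 55.1%), in 0 of 10 disease-associated genes and in 11.4% of the 9198 other genes. TCACGTG was present in 3 lysosomal genes (20%), in 0 disease-associated genes and in 6.86% of the others. TGANTCA, searched with any base at N, is looser than the AP-1 site, which has C or G there. It was found in 3 of 15 lysosomal genes, namely Cd68, Psap and Neu1 (inside the peak at Cd68 only). Among the 10 disease-associated genes 2 held it, Cst7 and Gpnmb, and 4.51% of the other genes did. The match at Cst7 was TGATTCA, so these are not shares of AP-1 sites. AGGAAGT was found in Gusb among the lysosomal genes, in Spp1 and Cst7 among the disease-associated genes, and in 10.3% of the others. CCAAT, the NF-Y core, was found in 9 lysosomal genes (60%), in 4 disease-associated genes (40%) and in 41.3% of the others. Each rests on at most 15 genes and has a wide interval, and a match to these letters is a description of the window, not of a factor bound there.

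**Figure D1:**
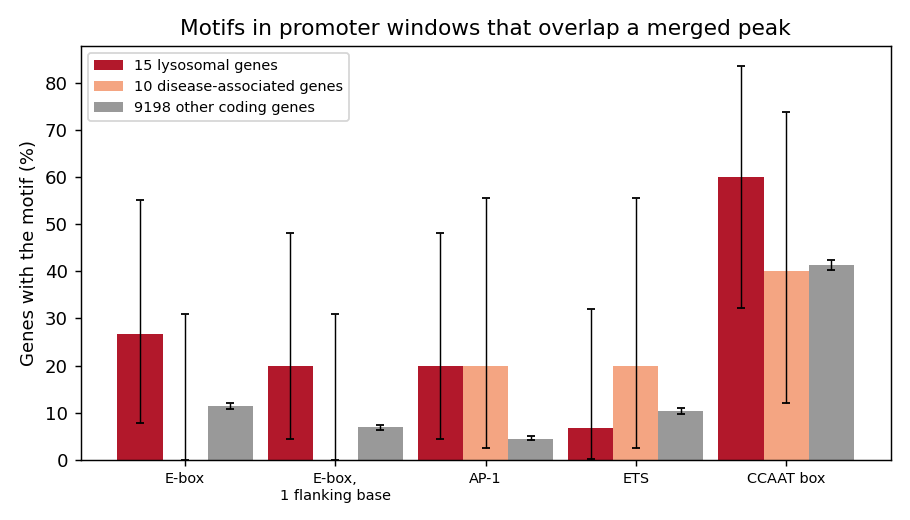
Share of genes (%, vertical axis) whose start window held each motif on either strand, among windows that overlapped a merged peak, for 15 lysosomal, 10 disease-associated and 9198 other protein-coding genes. The label AP-1 stands for TGANTCA with any base at N. Error bars are 95% exact binomial intervals. The interval of the lysosomal genes for the E-box runs from 7.79 to 55.1% and takes in the 11.4% of the other genes.

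The number of sites per gene ran from 1 to 17, with a median of 6. Among the 15352 other protein-coding genes with any merged peak the median was 3, with quartiles of 1 and 6. The 34 genes were not longer, with a median length of 16094 bp against 22783.5 bp. A high number of sites was not particular to them. Related genes with any merged peak had medians of 4 (other lysosomal), 5.5 (other disease-associated) and 10 (regulators of lysosomal genes). Cd9, a tetraspanin gene, had 17 sites, Ch25h 15, Cd83 and Atp6v0d2 12 each, and Ank and Laptm5 11 each. With Psap, at 10, these 7 genes held 88 of the 220 sites. Cd68, Cd52 and Neu1 had 1 each.

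**Figure D2:**
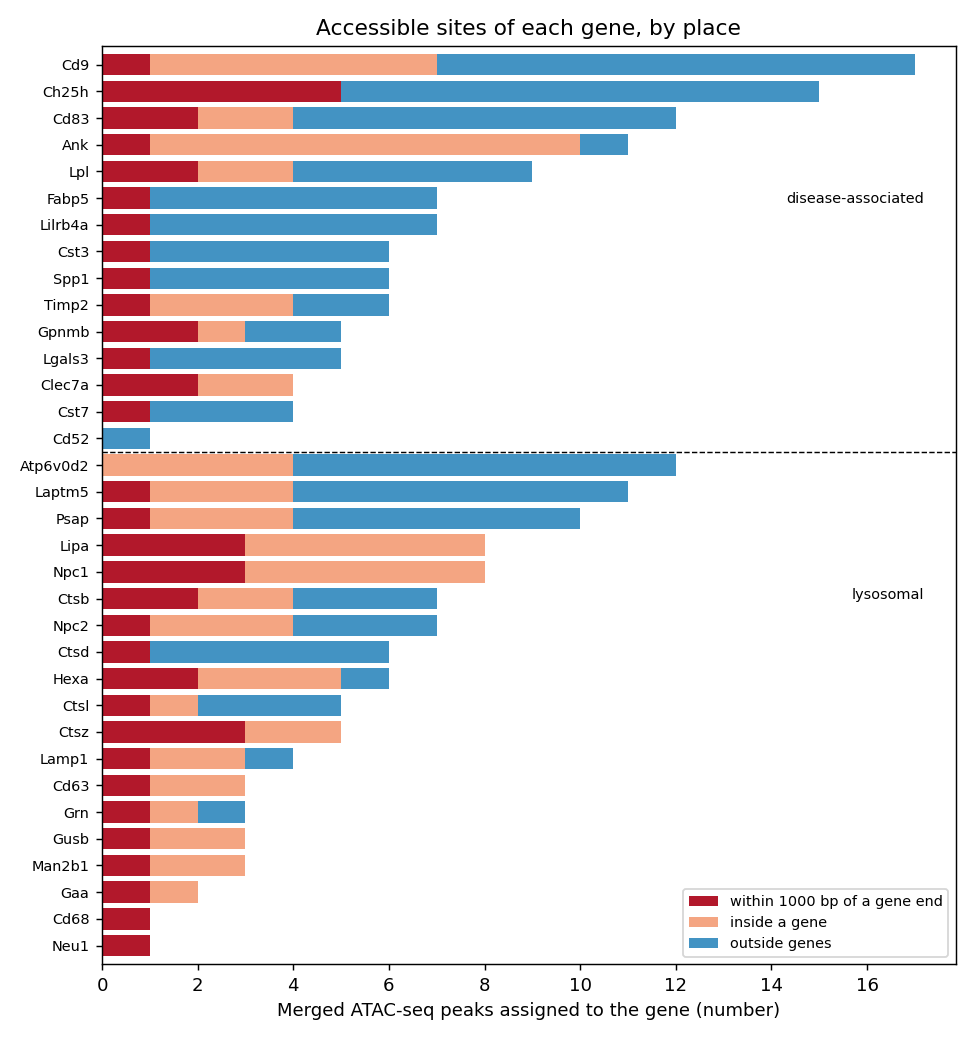
Number of merged peaks assigned to each of the 34 genes (horizontal axis), split into peaks within 1000 bp of a gene end, other peaks inside a gene and peaks outside genes. Disease-associated genes stand above the dashed line and lysosomal genes below it; Cd9 has 17 sites and Cd68, Cd52 and Neu1 have 1 each.

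Sites of these genes lay outside genes more often than other peaks did. Of the 220 sites, 106 (48.2%, 95% exact interval 41.4 to 55.0%) lay outside genes and more than 1000 bp from any gene end, against 32.7% of the 74475 other merged peaks. Inside genes were 66 (30%), against 45.8%. At a gene edge, meaning up to 1000 bp from the nearest gene end, were 48 (21.8%), against 21.5%. The intervals cover counting error only and take each site as independent, which sites of 1 gene are not. The outside share depended on how sites were assigned. It was 32.9% when every peak within 50000 bp of a member gene was counted, and 35.6% with genes of every annotated kind, against 24.0% of the other peaks.

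The outside sites belonged mostly to the disease-associated genes. Of their 115 sites, 68 lay outside genes (59.1%, 49.6 to 68.2%), and of the 105 lysosomal sites 38 did (36.2%, 27.0 to 46.1%). The share of the other merged peaks was 32.7%. These intervals also take sites of 1 gene as independent, and the difference between the 2 groups was not tested. Of the 68 sites Cd9 and Ch25h had 10 each and Cd83 had 8. The disease-associated genes had a median length of 11195 bp and the lysosomal genes 16592 bp. Edge sites were 22 (19.1%) of the disease-associated sites and 26 (24.8%) of the lysosomal ones. By role, with Lpl and Lipa counted under 2 roles each, the 5 secreted proteins had 21 of 32 sites outside genes, and the 6 hydrolases had 1 of 23. In all, 24 genes had an outside site, and in 16 genes such sites were the majority. These 2 counts were not made for other genes. The outside sites lay between 1357 and 71106 bp from their gene, with a median of 15627 bp, close to the median of 15142.5 bp for the other outside peaks within reach of a gene.

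Strand was known for the same 26 genes. Their 86 sites outside the gene body lay upstream in 60 cases (69.8%) and downstream in 26. The upstream sites include those at a start whose centre lay just before it. This share was not computed for other genes, so it cannot be called particular to these. Of the 26 downstream sites 10 belonged to Ch25h and 5 to Cd9. Sites within 1000 bp of the gene's own ends were at the start in 34 cases, covering all 26 genes, and at the other end in 3, at Clec7a, Ch25h and Hexa.

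**Figure D3:**
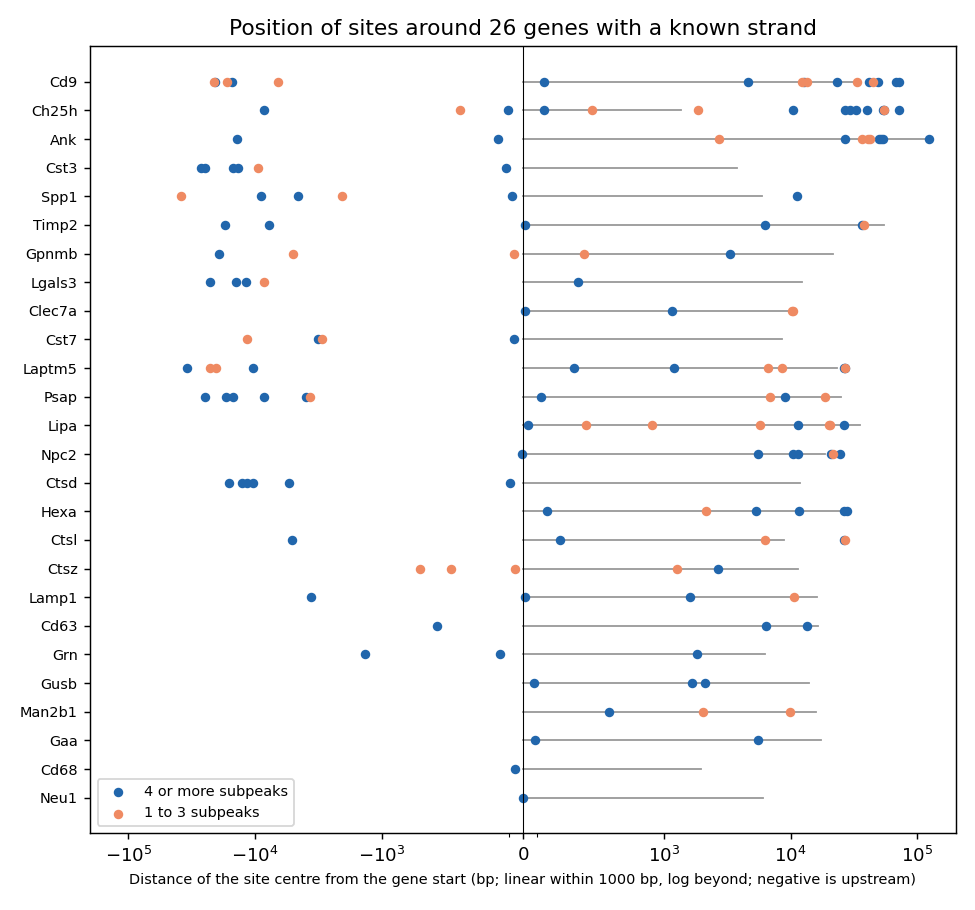
Distance of each site's centre from the 5′ end of its gene (bp, linear within 1000 bp and logarithmic beyond, negative upstream) for the 26 genes with a known strand, disease-associated genes first. Grey lines are gene bodies, blue points have 4 or more subpeaks and orange points 1 to 3; each gene has a point within 1000 bp of its start, and at Gpnmb and Ctsz all such points are orange.

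Among the secreted and extracellular proteins, Spp1 encodes osteopontin, a phosphoprotein secreted by activated macrophages. It lies on chromosome 5 from 104435111 to 104441053 and had 6 sites. The site at the start (104434909 to 104435154) had 4 subpeaks, and 4 more lay upstream, at 2080, 4566, 8955 and 38757 bp. Their subpeak numbers were 3, 4, 4 and 1, so the nearest and the farthest of the upstream sites lacked a call in at least 1 library. Cst3, the cystatin C gene and one of the most abundant transcripts of microglia, spans 3791 bp on chromosome 2. All 6 of its sites lay upstream of the start or at it, up to 26955 bp away, and 5 of them had 4 subpeaks. Lgals3, which encodes galectin-3, had 4 sites upstream and a start site of 680 bp with 7 subpeaks, the widest of the 220. Timp2, a metalloprotease inhibitor gene, had 6 sites, of which 3 were inside the gene and away from its ends. Lpl, the lipoprotein lipase gene, had 9, of which 4 lay between 68880627 and 68882045 on chromosome 8, next to each other at the lower end of the gene, with 3, 5, 1 and 1 subpeaks.

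Cst7 encodes cystatin F, an inhibitor of cathepsins in the endolysosome and a marker of the disease-associated state. It had 4 sites, 1 over the start with 4 subpeaks and 3 upstream with 3, 4 and 1. The pair at 150567044 to 150567355 and 150567359 to 150567559 on chromosome 2 lie next to each other, with 4 subpeaks and 1 subpeak.

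The surface and membrane proteins had the widest range. Cd9 spans 34495 bp on chromosome 6, and had 6 sites inside the gene, 5 downstream, 5 upstream and 1 at the start. Subpeak numbers ran from 1 to 8, with 10 sites at 4 or more. Cd83, an activation marker of dendritic cells and macrophages, had 12 sites on chromosome 13 between 43739639 and 43864771, and 11 of them had 4 or 5 subpeaks. Ank, a membrane protein gene for pyrophosphate export that spans 128233 bp, had 9 of its 11 sites inside the gene. Lilrb4a, an inhibitory receptor gene, had 6 of its 7 sites on the side of its higher coordinate, 21380 to 38292 bp away. Clec7a, the dectin-1 receptor for fungal glucans, had 4 sites, all inside the gene, with 4 subpeaks at the start and 3 near the end of the gene. Gpnmb had 5 sites, 2 of them with 4 subpeaks, at 49017192 to 49017490, upstream, and at 49039697 to 49039961, inside the gene, on chromosome 6. Cd63 had 3 sites and none with fewer than 4 subpeaks. Cd52, a small glycoprotein gene of leukocytes, had its 1 site 2229 bp away with 4 subpeaks, and no site at its ends.

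Among the lipid genes, Ch25h and Lipa are neighbours on chromosome 19. Ch25h encodes cholesterol 25-hydroxylase and Lipa the lysosomal acid lipase that frees cholesterol from its esters. The gap between them is 17167 bp. Between 34402844 and 34527538 all 23 merged peaks were assigned to one or the other gene. Ch25h, of 1366 bp, had 15 sites, of which 5 lay within 1000 bp of a gene end and 9 lay downstream and outside genes, 9066 to 70829 bp from it. No Ch25h site had more than 4 subpeaks, and 11 had exactly 4. Lipa had 8 sites, all inside the gene, and 3 of them had 4 subpeaks. Fabp5, a fatty acid binding protein gene, had 7 sites, with 8 subpeaks each at the gene edge (10012356 to 10012753 on chromosome 3) and 71106 bp away. Npc1 and Npc2 encode partner proteins that carry cholesterol out of the lysosome. Npc1 had 8 sites, 5 with at least 4 subpeaks, and Npc2 had 7, of which 6 had 4.

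The cathepsins had 23 sites. All 6 Ctsd sites lay upstream of the start or across it, and each had 4 or more subpeaks. The start site (142387721 to 142388116 on chromosome 7) had 6 subpeaks and spanned 396 bp, and the others lay 5407 to 16033 bp upstream. Ctsb, the cathepsin B gene, had 7 sites, with 6 subpeaks at its lower end (63122573 to 63122802 on chromosome 14) and 1 at its higher end, and 1 of its sites also lay inside the neighbouring gene Fdft1. Ctsl had 5 and Ctsz 5. Ctsz had 1 site with 4 subpeaks, inside the gene at 174436253 to 174436465 on chromosome 2, and its other 4 sites had at most 3.

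The hydrolases had few sites, mostly at the start or inside the gene. Hexa encodes a subunit of the hexosaminidase that degrades gangliosides. It had 6 sites, with a start site of 525 bp and 6 subpeaks and another with 7 subpeaks 696 bp beyond its end. Gaa, Gusb, the beta-glucuronidase gene, and Neu1, a sialidase gene, had 2, 3 and 1 sites, all with exactly 4 subpeaks. Man2b1, a lysosomal mannosidase gene, had 3, with 4 subpeaks at the start and 2 at each of the others.

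Of the membrane, pump and cofactor genes, Lamp1 had a start site of 402 bp with 6 subpeaks (13158979 to 13159380 on chromosome 8), over the 4 E-boxes printed above. Atp6v0d2 encodes a subunit of the proton pump that acidifies the lysosome. It had 12 sites and, like Cd52, none within 1000 bp of a gene end. Of its sites 6 had at most 3 subpeaks. Laptm5, a lysosomal membrane protein gene of blood cells, had 11 sites, 4 of them upstream as far as 34244 bp. Psap, which encodes the precursor of the saposins, had 10, with 6 upstream between 3673 and 24877 bp, of which 5 had 4 subpeaks. Grn, the progranulin gene, had 3 sites, each with 4 subpeaks, and Cd68, a macrophage marker of the late endosome, had 1 over its start, also with 4.

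Of the 220 sites 148 (67.3%) had at least 4 subpeaks, against 57.7% of the other merged peaks. For related genes outside the 34 the share varied. It was 65.2% for other lysosomal genes, 65.1% for other genes of the disease-associated state and 59.1% for the regulators of lysosomal genes. Of the 220 sites 32.7% (95% exact interval 26.6 to 39.4%) had at most 3 subpeaks, against 42.3% of the other merged peaks. The median was 4 in both. Exactly 4 subpeaks were found at 124 sites (56.4%), against 46.4%, and 38 sites (17.3%) had a single one, against 20.3%. By place, at most 3 subpeaks were found at 28.3% of the 106 outside sites, against 45.9% of the other outside peaks. At gene edges it was 29.2% of 48, against 26.2%, and inside genes 42.4% of 66, against 47.3%. The gap was thus widest outside genes. No test was made of it. Every gene had at least 1 site with 4 or more subpeaks, and 8 genes had no other kind, namely Cd63, Ctsd, Cd68, Cd52, Gaa, Grn, Neu1 and Gusb. Of these, Cd68, Cd52 and Neu1 had 1 site each. No such counts were made for other genes. A gene with several sites is likely to have at least 1 of this kind, since 57.7% of the other merged peaks were. Sites with 7 or more were 9 (4.09%, against 2.48%), at 7 genes. The median width was 235 bp, against 236 bp.

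**Figure D4:**
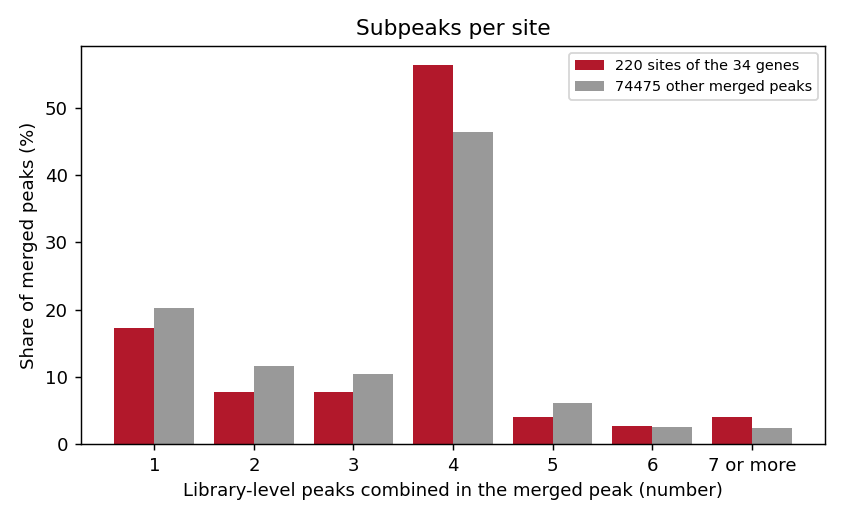
Share of merged peaks (%, vertical axis) by number of library-level peaks combined in them, for the 220 sites of the 34 genes and the 74475 other merged peaks. Peaks with exactly 4 subpeaks make up 56.4% of the sites and 46.4% of the other peaks.

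The comparison of MDM with YSM macrophages in the deposited lists included none of the 220 sites. The lists' names give the group, which is taken here as the one with higher accessibility. The MDM list held 0 of them, and 0.145% of all merged peaks (108 of 74695). The YSM list held 0 of them, and 1.48% of all merged peaks (1104 of 74695). At these shares 0.318 and 3.25 of the 220 sites would be listed. With sites taken as independent, a count of 0 allows a share of up to 1.36% (3 of 220). This is above the MDM share and just under the YSM share. Sites of 1 gene are not independent, so the true limit may be higher. A share equal to the MDM background could not be detected with this number of sites. One equal to the YSM background lies at best at the edge of what it can show. The deposited lists give no values for unlisted peaks, so the size of a difference at these sites, or its absence, cannot be stated.

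Of the 34 genes, 18 had a listed peak of either kind within 1 Mb and 16 had none. No listed peak was within 100000 bp of any of the 34 genes, where 1.52% of all protein-coding genes with a merged peak had an MDM-listed peak and 11.6% a YSM-listed peak that close. Within 200000 bp, 1 gene (2.94%, against 2.55%) had an MDM-listed peak and 2 genes (5.88%, against 18.9%) YSM-listed ones. The MDM-listed peak lay 175017 bp from Lamp1, inside Mcf2l, a guanine nucleotide exchange factor gene (12984035 to 12984253 on chromosome 8, 2 subpeaks). Near Fabp5 were 3 YSM-listed peaks, 115869 to 116654 bp away, between 9895711 and 9896816 on chromosome 3, with 5, 3 and 1 subpeaks. They were nearer to Pag1, an adaptor protein gene of lymphocyte signalling, and were assigned to it. The YSM-listed peak 155133 bp from Laptm5 (131091171 to 131091391 on chromosome 4) had no protein-coding gene within 100000 bp. Just beyond this range, Ch25h and Lipa shared an MDM-listed peak near Acta2, at 203349 and 221882 bp. Within 1 Mb, 5 genes (14.7%, against 9.30%) had an MDM-listed peak and 13 (38.2%, against 54.0%) a YSM-listed one. The median distance to the nearest listed peak was 9512097 bp for the MDM list, over 33 genes with one on their chromosome, and 1332692.5 bp for the YSM list. For all protein-coding genes with a merged peak the medians were 8574836 bp for the MDM list and 872022.5 bp for the YSM list.

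**Figure D5:**
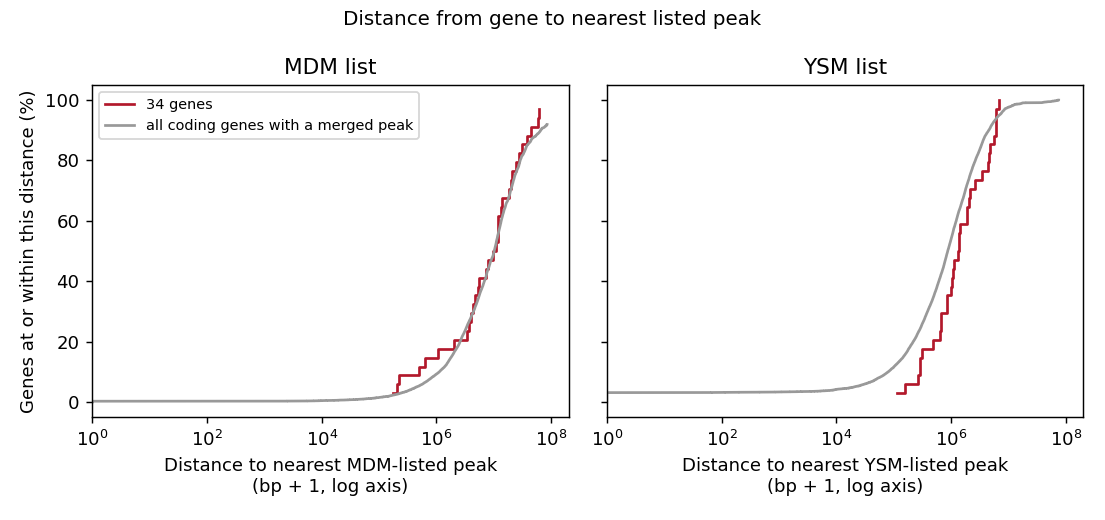
Cumulative share of genes (%, vertical axis) by distance to the nearest MDM-listed (left) or YSM-listed (right) peak (bp + 1, log axis), for the 34 genes and all protein-coding genes with a merged peak. The 34 genes begin at 175017 bp for the MDM list and at 115869 bp for the YSM list.

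Related genes outside the 34 were followed in 3 lists. Of 43 other lysosomal genes 42 had sites, 227 in all, with Ctsc (25) and Arsb (24) at the top. None were MDM-listed and 2 (0.881%, against 1.48% of all merged peaks) were YSM-listed. These lay inside Lgmn, the asparaginyl endopeptidase gene (102395701 to 102395937 on chromosome 12, 3 subpeaks), and Sort1, the gene of the sorting receptor sortilin (108348097 to 108348630 on chromosome 3, 8 subpeaks). Of 26 other genes of the disease-associated state 24 had sites, 172 in all, with Cadm1 (39) and Cxcr4 (16) at the top. The Cxcr4 gene, for a chemokine receptor, had 1 MDM-listed site (128570261 to 128570771 on chromosome 1, 17683 bp away). It made up 0.581% of the 172 sites, against 0.145% of all merged peaks, and 0 sites of the list were YSM-listed. The 13 regulators, which include Tfeb and the PU.1 gene Spi1, had 137 sites, with Mitf (21) and Pparg (17) at the top. They had 1 MDM-listed site (0.730%), inside Tfec (16896613 to 16897273 on chromosome 6, 9 subpeaks), and 0 YSM-listed sites. Both of these MDM shares rest on 1 site each. Shares outside genes were 28.6% for the lysosomal list, 45.9% for the disease-associated list and 51.1% for the regulators. Start windows were covered at 32 of 35, 13 of 17 and 8 of 9 genes of these lists.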

How the data were processed

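Trimmomatic 0.39, Bowtie2 2.2.5, HOMER and Picard are named for the authors' processing, and mm10 as build, per the submitters' processing notes. The peaks of the 4 libraries were merged with HOMER mergePeaks, per the file headers. For caller settings and any Tn5 shift the sources used here give nothing. The score column of the deposited intervals was 1 in nearly all rows and was not used. The MDM and YSM lists come from the authors' differential test, as their names show, and its thresholds are unknown here. All 1212 listed peaks matched a merged peak by identical coordinates.

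The number of subpeaks was read from the end of each peak's name. It fits the coordinates, since peaks with 1 subpeak were all 201 bp wide and 0 peaks were wider than their subpeaks times 201 bp. Coordinates were written 1-based. Genes and start windows came from RefSeq GRCm38.p6, with 21896 protein-coding genes. Any overlap of a window with a peak counted. Assignment was tested on made-up peaks with known answers. Python 3.11.15, pandas 2.3.3 and scipy 1.17.1 were used.

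The genes, lists, motifs and rules were chosen with earlier results of these data known, so no enrichment test was made. All 34 genes are named. Sequences followed a rule (lysosomal genes with CACGTG in a covered window), except those of Spp1 and Cst7. Other genes were named if listed, or as the pair with most sites. Alternatives concerned assignment, gene kinds, subpeak number, merging, gene edges and list matching.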

Additional observations from a re-analysis of the deposited data

How the results depend on the processing

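Counts were taken as moved when they changed by more than 1.5-fold, and shares when they left the 95% exact interval of the first value. Medians were taken as moved when they left the 95% interval of the first median, read from its ranked values. By these wide limits 13 of 86 values under an alternative, over 14 results, moved and 73 did not. Among the 73 were start windows holding a peak's centre (18 genes, 69.2%, against 25 genes with any overlap), 177 sites with genes of every annotated kind and 148 sites with at least 4 subpeaks. The number of listed sites was 0 for both lists under every alternative run, including assignment within 50000 bp to any of the 34 genes and list matching by an overlap of 1 bp or 50%. With any of the genes within 50000 bp of a peak the number of sites was 417, the median per gene 12, the share at a gene edge 30.5% and the share outside genes 32.9%. With genes of every annotated kind the edge share was 28.2% and the outside share 35.6%, against 27.0% and 24.0% of the other peaks. The lysosomal genes alone had 105 sites with 36.2% outside genes, and the disease-associated genes alone 115 with 59.1%. The share with at most 3 subpeaks was 18.7% among peaks with at least 2 subpeaks and 0% with at least 4, both lower by construction. It was 24.7% with peaks within 1000 bp counted as 1 site, where the subpeaks of joined peaks were added up. No such values were computed for the other peaks, so these do not bear on the gap to them. With gene edges of 500 and 2000 bp the edge share was 17.7% and 27.7%, within those limits, and without Cd9 there were 203 sites. No paired analysis was possible because the deposited intervals hold no value per library, and for the same reason no library could be left out. The number of sites per gene limits the precision of every share.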
